A study of Mus musculus with 12 samples.

Results

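The genes described here carry out mitosis: they drive entry into it, attach chromosomes to the spindle, separate them and split the cell. The set is a list of 44 named genes, of which 43 were measured among 19937 genes on the arrays. Cyclin B1 (Ccnb1) had no probe set that names it alone and was not analysed here. A gene was represented by 1 probe set that carries its symbol only, the one with the highest mean over the 12 arrays, and levels are log2 of the deposited intensity. On this scale a difference of 1 is a 2-fold change.

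Gene expression was measured on 1-colour Affymetrix mouse arrays, 3 per group. All groups carry the genotype Myf5Cre, R26-LSL-rtTA and Col1a-Teto-hYAP1 S127A on a C57BL/6 background, in which Cre from Myf5, a gene of muscle progenitors, switches on the rtTA activator and doxycycline then induces a human YAP1 with the S127A change. Interstitial hindlimb muscle cells of donors given doxycycline for 4 weeks were grafted into the calf muscle of NOD/SCID hosts that also received the drug. The tumours were taken at day 0 of doxycycline removal (TUM), after 3 days (OFF3) and after 6 days (OFF6). The control (CTL) was hindlimb muscle of mice of that genotype that were never induced. A tumour sample can hold host cells beside the grafted ones, and the labels do not say whether each array is a separate animal. These are bulk samples, in which fewer dividing cells and less RNA per dividing cell cannot be told apart.

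As background, cells in late G2 switch on a shared programme of mitotic genes, which is low in resting cells and absent from finished muscle fibres, whose nuclei do not divide. Many of these genes carry in their promoters a CHR element, bound by the MuvB complex with B-Myb and FoxM1 or with the repressive DREAM proteins, and near it CCAAT boxes bound by NF-Y. YAP and TEAD are known from other systems to act with B-Myb on such genes. The spindle then pulls chromosomes by kinetochores, the checkpoint holds anaphase until all are attached, and the central spindle marks the site of cytokinesis.

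Promoter sequence was examined first, since the genes moved together across the arrays. RefSeq windows of 300 bases (250 before to 50 from the annotated start on, mouse build GRCm38.p6) were found for 35 of the 44 listed genes, 34 of them measured, in 37 windows. Both strands were searched for the CHR cores TTTGAA and TTCGAA and for CCAAT. A CHR core was present in 29 of 37 windows (78.4%), against 19.2% of all 32851 windows. CCAAT was present in 27 (73.0%), against 37.4% of all. Both together were present in 25 windows (67.6%), against 7.52% of all. In the last 150 bases alone, a core stood in 75.7% of these windows and in 8.59% of all windows. Ect2 and Prc1 have 2 overlapping windows each, so 27 of the 35 genes held a core. No core was found in the windows of Ccnb1, Cenpe, Nuf2, Mad2l1, Birc5, Nusap1, Ncaph and Melk, which says only that these letters are not there.

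Of 4 windows printed for their motif pattern, Bub1 has the largest fall described below, Ccnb2 and Cdk1 belong to the Cdk1 kinase and its cyclins, and Cenpe lacks a core. Capitals mark the CHR cores and the CCAAT boxes, which read as ATTGG where they lie on the other strand. The last 50 bases of each run begin at the start site. Bub1 lies at chr2:127831810-127832109 on the minus strand, Ccnb2 at chr9:70421505-70421804 on the minus strand, Cdk1 at chr10:69352863-69353162 on the minus strand, and Cenpe at chr3:135212313-135212612 on the plus strand.
Bub1: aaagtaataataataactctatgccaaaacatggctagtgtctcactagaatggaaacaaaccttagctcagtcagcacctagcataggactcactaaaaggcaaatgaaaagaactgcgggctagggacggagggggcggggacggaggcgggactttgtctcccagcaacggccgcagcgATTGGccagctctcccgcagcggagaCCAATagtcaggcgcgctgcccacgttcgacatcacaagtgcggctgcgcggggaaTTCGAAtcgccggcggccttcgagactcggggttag
Ccnb2: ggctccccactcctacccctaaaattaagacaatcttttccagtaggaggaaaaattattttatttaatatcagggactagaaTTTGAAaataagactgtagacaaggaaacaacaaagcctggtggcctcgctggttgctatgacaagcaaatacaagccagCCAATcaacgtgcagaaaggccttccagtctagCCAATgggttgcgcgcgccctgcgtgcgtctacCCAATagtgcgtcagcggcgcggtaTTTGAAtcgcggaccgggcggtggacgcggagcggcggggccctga
Cdk1: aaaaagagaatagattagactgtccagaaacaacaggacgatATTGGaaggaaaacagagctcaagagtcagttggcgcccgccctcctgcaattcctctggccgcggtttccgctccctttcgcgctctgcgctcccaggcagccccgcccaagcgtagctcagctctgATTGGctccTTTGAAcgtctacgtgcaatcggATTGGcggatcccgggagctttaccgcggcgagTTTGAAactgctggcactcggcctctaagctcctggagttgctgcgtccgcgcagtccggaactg
Cenpe: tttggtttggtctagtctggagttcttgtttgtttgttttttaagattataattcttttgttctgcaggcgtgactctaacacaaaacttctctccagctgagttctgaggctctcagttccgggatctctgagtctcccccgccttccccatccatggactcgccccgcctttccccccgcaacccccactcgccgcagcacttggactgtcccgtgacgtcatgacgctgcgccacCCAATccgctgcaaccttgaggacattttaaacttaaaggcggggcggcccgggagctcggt
In Ccnb2 the 3 CCAAT boxes begin at -87, -54 and -21 and a CHR core follows at 5. Bub1 holds the TTCGAA form at 15, after CCAAT matches at -68 and -42. Cdk1 has cores at -71 and -15 and 3 inverted CCAAT matches. In Cenpe, CCAAT at -12 is the single match. Positions were summarised over all listed genes with a window, including Ccnb1, which was not measured, taking the window that starts at the lower coordinate. The median was -10.0 for the 38 CHR cores and -66.0 for the 48 CCAAT matches.

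**Figure D1:**
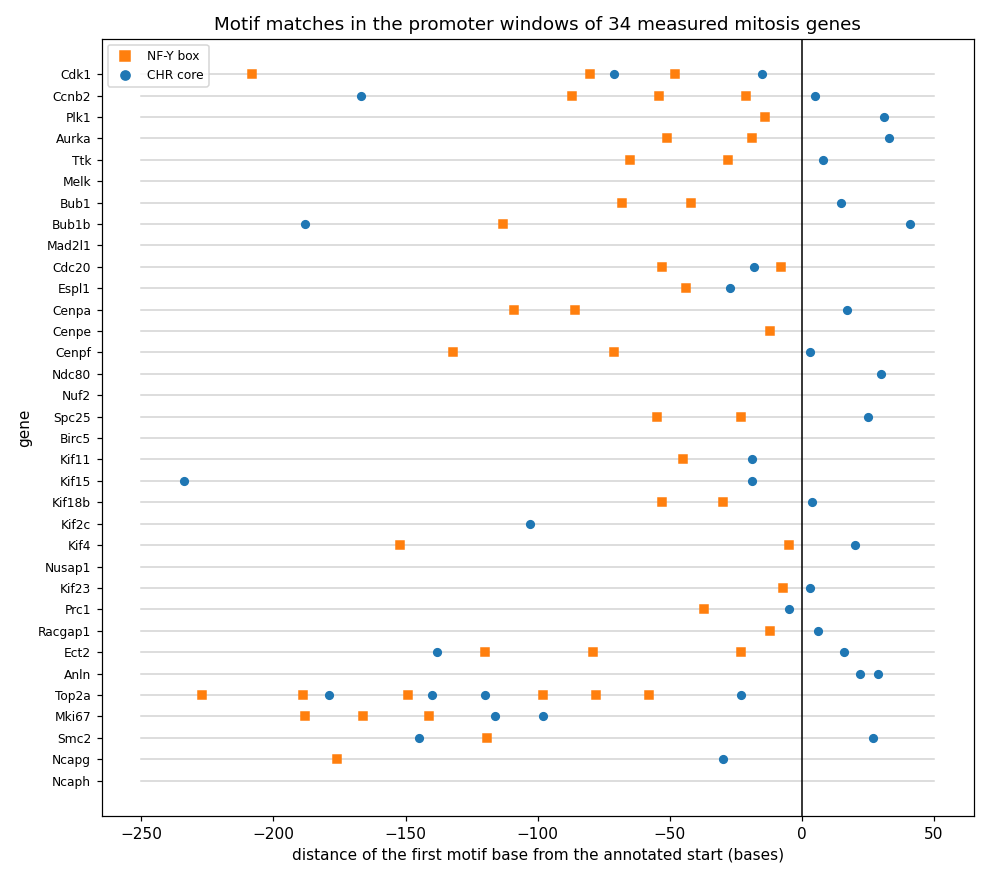
Positions of motif matches in the promoter windows of 34 measured mitosis genes, as the distance of the first motif base from the annotated start (0) in bases. Circles are CHR cores and squares NF-Y (CCAAT) boxes, on either strand, and grey lines span the window. Most boxes lie before the start and most cores near it, and 6 of these genes show no match.

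The same search was made in other cell division genes. A core stood in 13 of 29 windows of other kinetochore and centromere genes (44.8%), in 14 of 26 of other motor, spindle and cytokinesis genes (53.8%), in 4 of 17 of the anaphase-promoting complex (23.5%) and in 5 of 31 of DNA replication genes (16.1%). CCAAT was present there in 69.0%, 50%, 52.9% and 61.3% of windows, in that order. In windows of other spindle checkpoint, passenger and kinase genes CCAAT was as frequent as in the members (14 of 19, 73.7%), while a core stood in 8 of 19 (42.1%). These lists were written with results of these data known, and a match is a description of sequence, with binding not measured.

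Across arrays, the median intensity ran from 86.74 to 93.05. Yap1 had a mean level of 9.86 in TUM, 9.57 in OFF3, 9.61 in OFF6 and 9.56 in CTL, and whether its probes read the human transgene is not known. Of the known YAP targets, Ccn1 had a mean of 11.34 in TUM, 9.86 in OFF3 and 10.03 in OFF6. Ankrd1 was at 11.65, 10.32 and 11.24, and Ccn2 at 11.06, 11.15 and 11.48 (day 3 difference 0.08, limma adjusted p = 0.459). Markers of adult muscle fibre averaged 13.01 to 13.05 in CTL and 11.13 to 12.39 in the tumours. One array stood apart from its group: OFF6 replicate 2 had a macrophage marker mean of 11.05, against 10.28 and 10.32 in the other OFF6 arrays and 10.93 to 11.06 in OFF3, and its fibroblast marker mean of 10.89 also lay above theirs of 10.2 and 10.17. For the mitosis genes, the day 6 median fall and the calls that changed without this array are given below. Other day 6 values, those of markers and YAP targets among them, include it. Ankrd1 was at 10.74 on it, against 11.5 and 11.48 on the other OFF6 arrays. OFF3 replicate 3 had the highest fibre marker mean of the tumours, 12.39.

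All 43 measured genes were higher in day 0 tumours than in control muscle, and all 43 were lower again 3 days and 6 days after doxycycline was removed. The median over the genes was 3.06 for TUM minus CTL, from 0.79 for Spc24 to 4.85 for Anln. Of the 43, 42 differed by at least 2-fold. Over all genes, 30.3% were called higher in TUM than in CTL and 13.7% at least 2-fold higher. For Anln and 15 others the CTL level was within array background, as given below, so the size of their rise is not exact. Of all genes, 45.9% were called lower in TUM than in CTL. Cell type markers moved over the same comparison: 7 of 7 macrophage genes were called higher in TUM than in CTL (median 3.16) and 8 of 8 adult fibre genes lower (median -1.78). Their part in the rise was not tested. A gene was called where limma's adjusted p, by Benjamini and Hochberg over all genes, was under 0.05. The median member level on each array was 6.01 to 6.18 in CTL, 9.08 to 9.14 in TUM, 6.86 to 7.39 in OFF3 and 7.18 to 7.38 in OFF6. The 3 TUM arrays lay above every other array, and OFF3 and OFF6 overlapped each other.

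**Figure D2:**
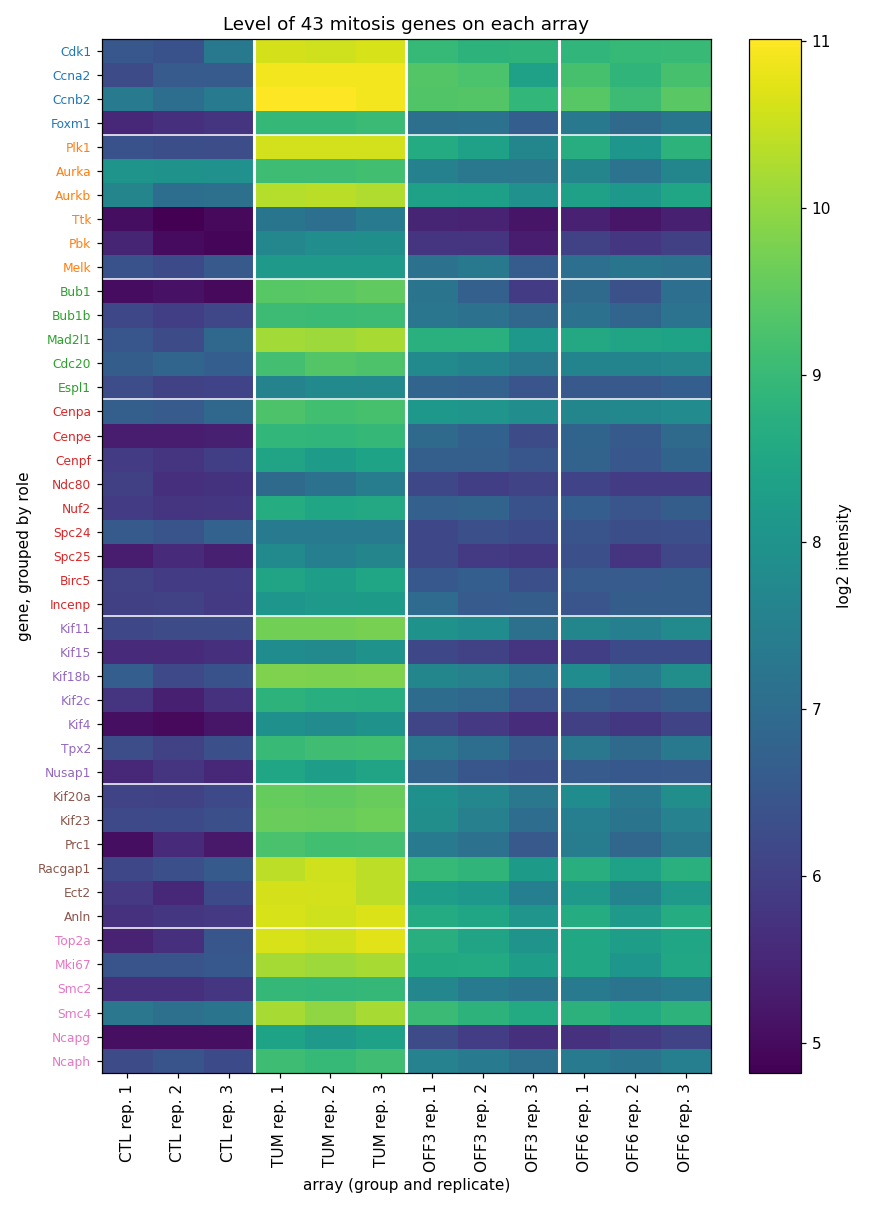
Log2 intensity (colour) of the 43 measured mitosis genes (rows, grouped and coloured by role) on the 12 arrays (columns, 3 per group). The TUM columns are brightest in each row, the CTL mean is lowest in all rows but those of Aurka and Spc24.

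At day 3, all 43 genes were called lower than at day 0, where 16% of all genes were. All 43 fell by at least 2-fold, against 1.98% of all genes, and for all 43 every OFF3 array lay below every TUM array, against 22.7% of all genes. The median was -1.90, from -2.84 for Bub1 to -1.02 for Espl1, with a median of 0.02 over all genes, and the largest adjusted p among the members was 7.57e-05. In intensity, a median of 26.8% of the day 0 level was left, from 14% to 49.5%. At day 6, all 43 were again called lower than day 0 (16.6% of all genes), at least 2-fold (2.14% of all genes) and with no overlap of arrays (21.6% of all genes). The day 6 median was -1.83, from -2.65 to -1.01, the largest adjusted p was 0.000154, and a median of 28.1% of the day 0 intensity was left. Both comparisons share the TUM arrays. Without OFF6 replicate 2 the day 6 median was -1.77 and without OFF3 replicate 3 the day 3 median was -1.76, with all 43 genes called in each. Of all genes, 18.4% and 12.6% were called lower there, in that order.

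**Figure D3:**
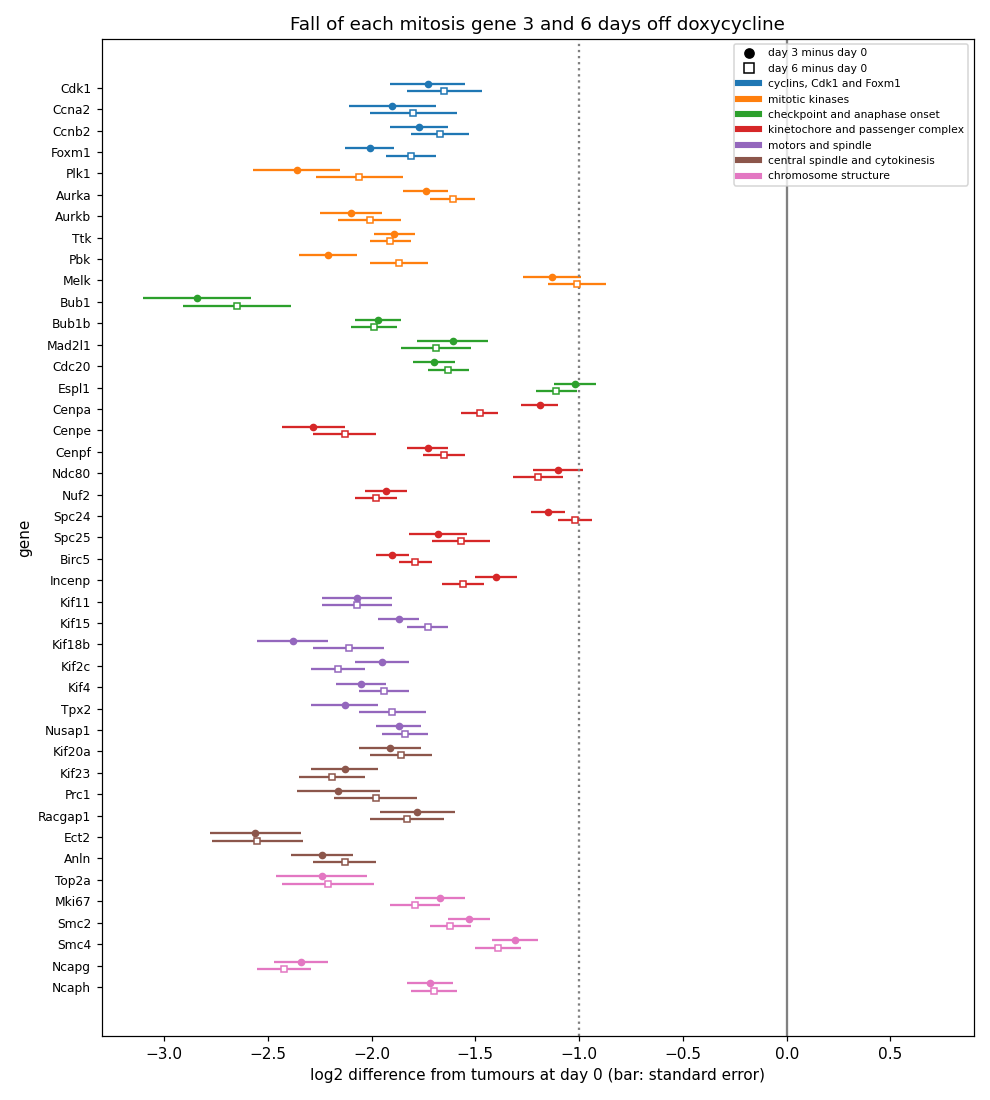
Log2 difference from day 0 tumours for each of the 43 genes, at day 3 (filled circles) and day 6 (open squares), coloured by role. Bars are standard errors from limma and the dotted line marks a 2-fold fall. All points lie left of that line, with Bub1 and Ect2 farthest and Espl1, Melk, Spc24 and Ndc80 nearest.

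Of the regulators of mitotic entry, the kinase Cdk1 had levels of 10.6, 10.57 and 10.64 in TUM, 8.97, 8.82 and 8.85 in OFF3, and 8.89, 8.97 and 8.99 in OFF6. In control muscle Cdk1 was at 6.5, 6.38 and 7.33. The 4 groups separated except OFF3 from OFF6, and Cdk1 fell by 1.73 ± 0.18 (SE, n = 3 per group) at day 3 (limma adjusted p = 1.49e-05) and fell by 1.65 at day 6 (adjusted p = 1.71e-05). Cyclin A2 (Ccna2), which partners Cdk1 and Cdk2, was at 10.89, 10.9 and 10.9 in TUM and at 9.35, 9.26 and 8.36 in OFF3. Its OFF6 levels were 9.2, 8.87 and 9.21, and its CTL levels were 6.25, 6.59 and 6.6. OFF3 replicate 3 stood about 1 log2 unit below its 2 fellows, and the day 3 difference was -1.90 ± 0.21 (limma adjusted p = 2.08e-05).

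Foxm1, a transcription factor that drives the late mitotic genes and is one itself, was at 8.95, 8.94 and 9.05 in TUM, at 7.1, 7.14 and 6.66 in OFF3 and at 7.32, 6.96 and 7.22 in OFF6. In control muscle it was at 5.54, 5.67 and 5.74, below all tumour arrays. Foxm1 fell by 2.01 ± 0.12 at day 3 (limma adjusted p = 2.53e-07) and fell by 1.81 at day 6. Cyclin B2 (Ccnb2) changed by -1.77 and -1.67 on those days.

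Among the mitotic kinases, Plk1, which acts at centrosomes, kinetochores and the midbody, was at 10.58, 10.58 and 10.59 in TUM and at 8.62, 8.36 and 7.67 in OFF3. At day 6 it stood at 8.68, 8.07 and 8.82, and in CTL at 6.38, 6.3 and 6.29. The TUM arrays agreed within 0.01 while the 3 arrays of OFF3 spread over about 1 unit, and the differences were -2.36 ± 0.21 at day 3 (limma adjusted p = 4.48e-06) and -2.06 at day 6. Aurora B (Aurkb), the kinase of the chromosomal passenger complex that corrects wrong attachments, was at 10.32, 10.36 and 10.28 in TUM, 8.37, 8.32 and 7.96 in OFF3, and 8.36, 8.12 and 8.45 in OFF6. CTL stood at 7.63, 7.05 and 7.1, below every tumour array. Aurkb fell by 2.10 ± 0.15 at day 3 (limma adjusted p = 6.71e-07) and fell by 2.01 at day 6.

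Aurora A (Aurka), the centrosomal kinase of spindle assembly, had a different place relative to muscle. It was at 9.08, 9.09 and 9.14 in TUM, at 7.53, 7.29 and 7.27 in OFF3 and at 7.64, 7.18 and 7.65 in OFF6. Control muscle was at 8.03, 7.99 and 7.94, below TUM and above all 6 arrays after removal. Aurka fell by 1.74 ± 0.11 at day 3 (limma adjusted p = 3.19e-07), which left it 0.63 log2 units under CTL (OFF3 minus CTL -0.63, adjusted p = 0.000303).

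The checkpoint kinase Ttk (Mps1) changed by -1.89 and -1.91 at days 3 and 6. Pbk, a kinase active in mitosis, changed by -2.21 and -1.87. Melk, a kinase that peaks in dividing cells, was at 8.16, 8.14 and 8.18 in TUM, at 7.16, 7.32 and 6.62 in OFF3 and at 7.09, 7.23 and 7.12 in OFF6, which placed it among the smallest falls at both times (-1.13 ± 0.14, limma adjusted p = 7.57e-05, and -1.01, adjusted p = 0.000154). In CTL Melk was at 6.37, 6.22 and 6.56, so that OFF3 replicate 3 lay close to the highest muscle array.

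Of the checkpoint and anaphase genes, Bub1, a kinase that builds the checkpoint signal at kinetochores, was at 9.4, 9.43 and 9.49 in TUM. It was at 7.19, 6.72 and 5.89 in OFF3, at 6.96, 6.35 and 7.07 in OFF6 and at 5.02, 5.12 and 4.97 in CTL. OFF3 replicate 3 and OFF6 replicate 2 were the lowest of their groups, and still above muscle. Bub1 had the largest fall of the set on both days, -2.84 ± 0.26 (limma adjusted p = 4.62e-06) and -2.65 ± 0.26 (adjusted p = 6.48e-06). Its partners in the checkpoint followed: Bub1b (BubR1) by -1.97 and -1.99, and Mad2l1 (Mad2) by -1.61 and -1.69. Cdc20, the activator of the anaphase-promoting complex that the checkpoint restrains, changed by -1.70 and -1.63.

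Espl1, or separase, the protease that cuts cohesin at anaphase, had the smallest fall at day 3. It was at 7.6, 7.76 and 7.74 in TUM, at 6.84, 6.77 and 6.45 in OFF3, at 6.54, 6.54 and 6.68 in OFF6 and at 6.28, 6.01 and 6.07 in CTL. The groups after removal lay between TUM and CTL on every array, with differences of -1.02 ± 0.10 (limma adjusted p = 1.21e-05) and -1.11.

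Among the kinetochore genes, Cenpa, the histone H3 variant that marks centromeres, was at 9.28, 9.13 and 9.22 in TUM, at 8.13, 8.06 and 7.85 in OFF3, at 7.66, 7.7 and 7.81 in OFF6 and at 6.7, 6.6 and 6.91 in CTL. Here all 3 OFF6 arrays lay below all 3 OFF3 arrays. The differences from day 0 were -1.19 ± 0.09 (limma adjusted p = 1.24e-06) and -1.48 (adjusted p = 1.94e-07).

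In the Ndc80 complex, which grips the microtubule, the 4 subunits changed to unequal degrees. Ndc80 was at 6.95, 7.13 and 7.41 in TUM, 6.15, 5.96 and 6.08 in OFF3 and 6.07, 5.9 and 5.9 in OFF6, against 5.99, 5.68 and 5.73 in CTL. After its change of -1.10 ± 0.12 at day 3 (limma adjusted p = 1.50e-05) and -1.20 at day 6, the tumour arrays overlapped those of muscle. Spc24 was at 7.38, 7.37 and 7.37 in TUM, 6.15, 6.32 and 6.2 in OFF3, 6.42, 6.31 and 6.32 in OFF6 and 6.57, 6.42 and 6.77 in CTL. All OFF3 arrays of Spc24 lay below muscle while 1 OFF6 array was level with the lowest muscle array, and the differences from day 0 were -1.15 ± 0.08 (limma adjusted p = 7.72e-07) and -1.02. Nuf2 changed by -1.93 and -1.98, and Spc25 by -1.68 and -1.57. The motor Cenpe, which carries chromosomes to the spindle equator, changed by -2.28 and -2.13. Cenpf, of the outer kinetochore, changed by -1.73 and -1.65. Birc5 (survivin) and Incenp, which hold Aurora B in the passenger complex, changed at day 3 by -1.90 and -1.40.

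Of the motors and spindle proteins, Kif11 (Eg5), which pushes the spindle poles apart, was at 9.69, 9.7 and 9.74 in TUM, 7.99, 7.82 and 7.1 in OFF3, 7.67, 7.49 and 7.75 in OFF6 and 6.15, 6.26 and 6.23 in CTL. It changed by -2.07 ± 0.17 at day 3 (limma adjusted p = 2.04e-06) and by -2.07 at day 6. Kif18b, a regulator of astral microtubule length, was at 9.82, 9.78 and 9.82 in TUM, 7.67, 7.51 and 7.08 in OFF3, and 7.84, 7.37 and 7.88 in OFF6, with CTL at 6.67, 6.18 and 6.38. Its day 3 difference of -2.38 ± 0.17 (limma adjusted p = 6.13e-07) was the third largest of the set. Kif15, which can share the work of Kif11, changed by -1.87. The depolymerase Kif2c changed by -1.95 and the chromokinesin Kif4 by -2.05. The microtubule-nucleating factor Tpx2 changed by -2.13 and the spindle-bundling protein Nusap1 by -1.87.

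Genes of the central spindle and cytokinesis had the deepest median of the 7 roles, -2.14 at day 3 and -2.06 at day 6, against -1.68 and -1.57 for the kinetochore and passenger genes. Ect2, the exchange factor that activates RhoA for the contractile ring, was at 10.62, 10.58 and 10.39 in TUM, 8.3, 8.12 and 7.49 in OFF3, 8.18, 7.62 and 8.15 in OFF6 and 5.85, 5.52 and 6.2 in CTL. It changed by -2.56 ± 0.22 (limma adjusted p = 2.54e-06) and -2.55, and OFF3 replicate 3 was the lowest tumour array. Racgap1 and Kif23, which form centralspindlin and recruit Ect2, changed at day 3 by -1.78 and -2.13. The midzone bundler Prc1 changed by -2.16, the motor Kif20a by -1.91, and anillin (Anln), the scaffold of the ring, by -2.24. Differences between roles were not tested.

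Among genes of chromosome structure, topoisomerase II alpha (Top2a), which untangles sister DNA, was at 10.64, 10.56 and 10.72 in TUM, 8.73, 8.43 and 8.02 in OFF3, 8.5, 8.3 and 8.48 in OFF6 and 5.44, 5.68 and 6.47 in CTL. It fell by 2.24 ± 0.22 at day 3 (limma adjusted p = 1.01e-05). A second Top2a probe set, with a lower mean, changed by -0.72 at day 3 and -0.80 at day 6, so the direction was shared and the size was not. That probe set was 0.82 above CTL in TUM, and it was not called against CTL at day 3 (0.10, limma adjusted p = 0.273) or day 6 (0.02, adjusted p = 0.854). Mki67 (Ki-67), the coat protein of mitotic chromosomes used to mark dividing cells, was at 10.17, 10.11 and 10.21 in TUM, 8.57, 8.61 and 8.3 in OFF3, 8.54, 8.08 and 8.51 in OFF6 and 6.42, 6.43 and 6.53 in CTL. Every tumour array after removal stayed above muscle, with differences of -1.67 ± 0.12 (limma adjusted p = 5.50e-07) and -1.79 from day 0.

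The condensin I subunit Ncapg was at 8.4, 8.14 and 8.36 in TUM, 6.25, 5.95 and 5.67 in OFF3, 5.7, 5.87 and 6.08 in OFF6 and 5.08, 5.08 and 5.07 in CTL. Its difference of -2.42 ± 0.13 at day 6 (limma adjusted p = 7.39e-08) was the third largest on that day. Ncaph, also a subunit of condensin I, changed at day 3 by -1.72. Smc2 and Smc4, the ATPases common to both condensins, changed by -1.53 and -1.31.

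Between day 3 and day 6 no member was called in either direction by limma, where 4.38% of all genes were called lower and 6.05% higher. Those shares rest on a spread estimated over all 4 groups. In a fit of only the 6 OFF3 and OFF6 arrays, 0.0552% of all genes were called lower and 0.0953% higher. Of the 43 genes, 28 had a higher mean at day 6 and 15 a lower one, with a median of 0.07. At an unadjusted p under 0.05, which 24.5% of all genes reached, there was 1 in each direction: Cenpa was lower by 0.29 ± 0.09 (limma adjusted p = 0.0701) and Pbk higher by 0.33 ± 0.14 (adjusted p = 0.176). Pbk was at 5.75, 5.76 and 5.32 in OFF3 and at 6.02, 5.8 and 6 in OFF6, against 7.68, 7.85 and 7.91 in TUM and 5.45, 5 and 4.94 in CTL, so its OFF6 arrays lay just above those of OFF3. The 95% intervals of the other 41 genes held 0. Over all members the outermost bounds were -0.50 (Kif2c) and 0.77 (Plk1), and other intervals were narrower, such as -0.06 to 0.31 for Spc24. A change within a gene's own interval could have gone undetected. The result rested on single arrays: without OFF3 replicate 3 the median became -0.09 and Cenpa was called (-0.37, limma adjusted p = 0.0303), and without OFF6 replicate 2 Aurka was called higher (0.28, adjusted p = 0.018). Of all genes, 5.47% were called lower without OFF3 replicate 3 and 12% higher without OFF6 replicate 2. With limma's array weights, 7 of 43 members were called higher and 2 lower, where 20.7% of all genes were called higher and 21.6% lower, so the members' shares lay below those of all genes.

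The arrays within a group moved over the set as a whole. OFF3 replicate 3 was the lowest OFF3 array for 39 of 43 genes and the highest for none (0), and OFF6 replicate 2 was the lowest OFF6 array for 34. The median SD over genes was 0.06 in TUM, 0.12 in CTL, 0.25 in OFF3 and 0.14 in OFF6. Over the 903 pairs of members, the median Pearson r across the 12 arrays was 0.97, and it was 0.63 after the group means were removed. The points share arrays, so these values describe the arrays and no p is given. In OFF3 and in OFF6 the array with the lowest mitotic levels had the highest fibre marker mean of its group (12.39 and 12.08). The OFF6 array also had the highest macrophage and fibroblast means of its group. The OFF3 array had the lowest macrophage mean of its group (10.93) and the highest fibroblast mean (10.88). The part of these cells in the result was not tested.

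After removal the set stayed above control muscle. At day 3, 40 of 43 genes were called higher than in CTL (28.4% of all genes) with a median of 1.04, and at day 6 again 40 (28.1% of all genes) with a median of 1.05. Aurka and Spc24 were called lower on both days (41.4% of all genes at day 3 and 36.1% at day 6), Spc24 at day 6 by 0.24 (limma adjusted p = 0.0256), and Ndc80 was not called (0.26, limma adjusted p = 0.0632, and 0.16, adjusted p = 0.251) except under some settings, such as quantile normalisation (0.40, adjusted p = 0.00492, at day 3). The call of Spc24 at day 6 was lost without CTL replicate 3 (-0.14, limma adjusted p = 0.117), OFF6 replicate 2 (-0.21, adjusted p = 0.0618) or OFF6 replicate 3 (-0.22, adjusted p = 0.069). At least 2-fold above CTL stood 23 members at day 3 (11.5% of all genes) and 22 at day 6 (10.7% of all genes). Centring the arrays on their median moved the median of all genes for OFF3 minus CTL from -0.12 to -0.30 and that of the members to 0.87 on both days. Kif15 (0.20, adjusted p = 0.0784) and Pbk (0.31, adjusted p = 0.0585) then lost their calls at day 3, and Ttk at day 6 (0.19, adjusted p = 0.0891).

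The share of the distance from TUM to CTL that was covered, over the 42 genes at least 1 log2 unit apart, had a median of 63.5% at day 3 and 62.0% at day 6. It was over 50% for 31 genes at day 3 and 32 at day 6. Shares were smallest for Ccna2 (43.1% at day 3, with 2.51 log2 units left), Racgap1 (43.4%), Cdk1 (44.6%) and Smc4 (44.6%). Mad2l1 (44.7%), Mki67 (45%), Anln (46.1%) and Top2a (47%) followed, the last by its brighter probe set alone, since the other was back near CTL. They were largest for Aurka (156%), Kif15 (83.2%), Ttk (82.5%), Pbk (82.1%) and Ndc80 (81.1%). Array background bears on this: 16 members (Bub1, Cenpe, Kif4, Kif2c, Kif15, Ttk, Nuf2, Ndc80, Spc25, Prc1, Anln, Nusap1, Ncapg, Smc2, Pbk and Foxm1) had CTL means at or below 5.82, the 95th percentile of 1027 olfactory receptor genes there, so their muscle levels are not told apart from background and their distances and shares are not exact. None (0) lay under that level in TUM (5.52), and Ttk alone in OFF3 (5.59) and OFF6 (5.6).

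**Figure D4:**
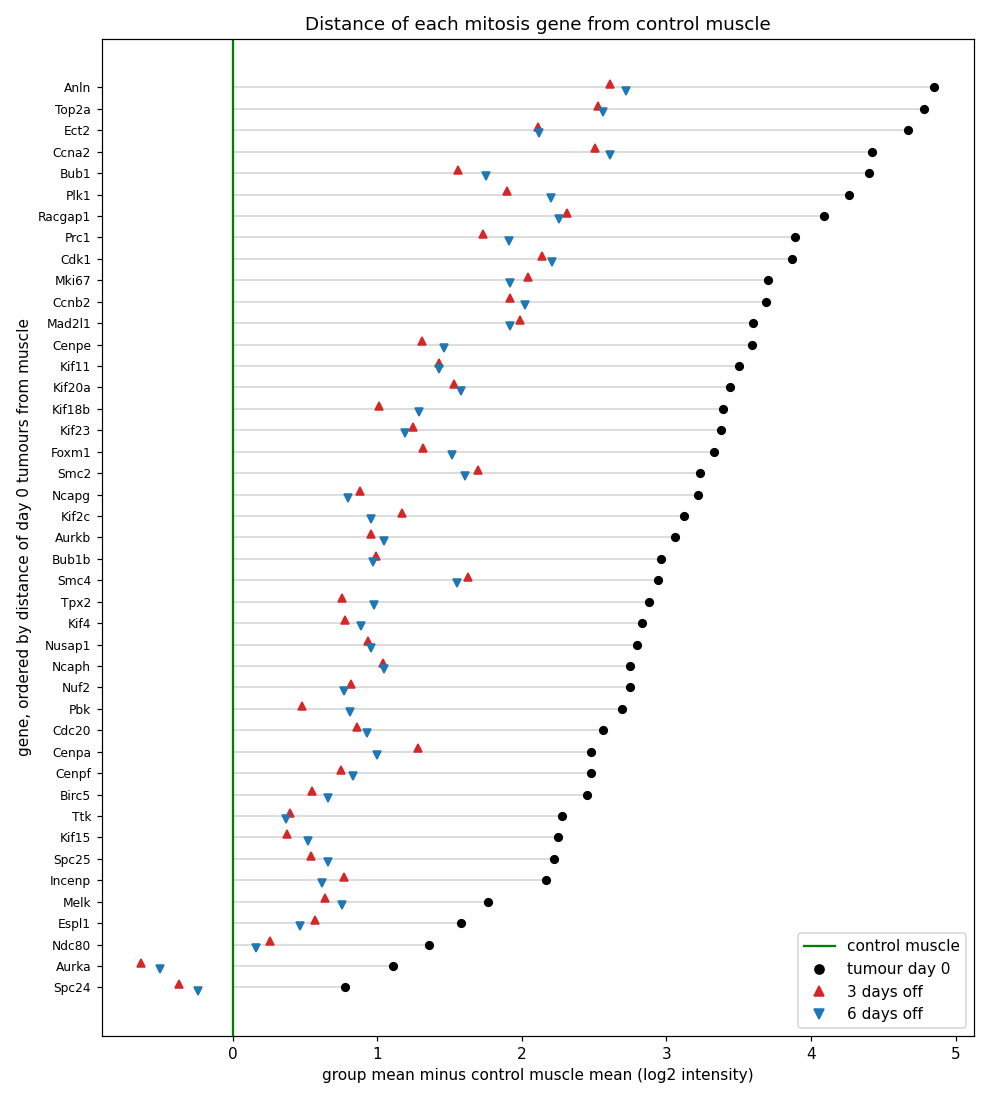
Group mean minus control muscle mean, in log2 intensity, for each of the 43 genes, ordered by the distance of day 0 tumours (black circles). Red triangles are 3 days and blue triangles 6 days off doxycycline, and the green line is control muscle. Both triangles lie between muscle and day 0 for 41 genes, and left of muscle for Aurka and Spc24.

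Other genes of cell division, from lists written with results of these data known, gave a graded picture. At day 3, 83 of 103 measured genes of 5 further mitosis lists were called lower and 0 higher, with a median of -0.83, and at day 6 it was 92 of 103. Of all genes, 16% were called lower at day 3 and 16.6% at day 6. Of other spindle checkpoint, passenger and kinase genes, 18 of 19 were called lower at day 3 (median -1.51), led by the cohesin protectors Sgo2a (-2.07) and Sgo1 (-1.91) and the kinase Mastl (-1.81). Of other motor, spindle and cytokinesis genes, 21 of 23 were called lower (median -1.41), with the spindle proteins Hmmr (-2.60) and Dlgap5 (-2.33) and the abscission protein Cep55 (-2.39) in front. Of other kinetochore and centromere genes, 26 of 29 were (median -0.83), with Ska3 at -2.32, Zwilch at -2.21 and Knl1 at -1.84.

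The remaining lists were the condensins and cohesins, the anaphase-promoting complex and the regulators. Their counts stand beside the same shares of all genes called lower, 16% at day 3 and 16.6% at day 6. Of other condensin and cohesin genes 10 of 16 were called lower (median -0.29), with Esco2 (-2.04), Cdca5 (-1.67) and Ncapd2 (-1.45) foremost. Of the anaphase-promoting complex 8 of 16 were (median -0.25): its inhibitor Fbxo5 (Emi1) at -1.87 and its ubiquitin carriers Ube2c at -1.42 and Ube2s at -0.63 led. Of the MuvB, B-Myb and E2F regulators 11 of 17 were (median -0.38), led by the repressor E2f7 (-1.99), Mybl2, which encodes B-Myb (-1.33), and the MuvB subunit Lin9 (-1.04). For comparison, 29 of 30 DNA replication genes were called lower (median -1.15), led by Pole (-2.12), Rrm2 (-1.84) and Tk1 (-1.69). No gene of these 7 lists was called higher at day 3 or day 6 than at day 0, where 13.4% and 14.9% of all genes were. At day 6 the counts called lower were 19 of 19 checkpoint and kinase genes, 21 of 23 motor and spindle genes, 28 of 29 kinetochore genes, 14 of 16 condensin and cohesin genes, 10 of 16 of the anaphase-promoting complex, 10 of 17 regulators and 30 of 30 replication genes. Between day 3 and day 6, 4 genes of the 5 mitosis lists were called lower (Cit, Stag2, Pds5b and Anapc5) and 1 higher, Tubg1 (0.53 ± 0.12, limma adjusted p = 0.0159). These were 3.88% and 0.971% of the 103 genes, against 4.38% and 6.05% of all genes, so neither share lay above that of all genes.

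**Figure D5:**
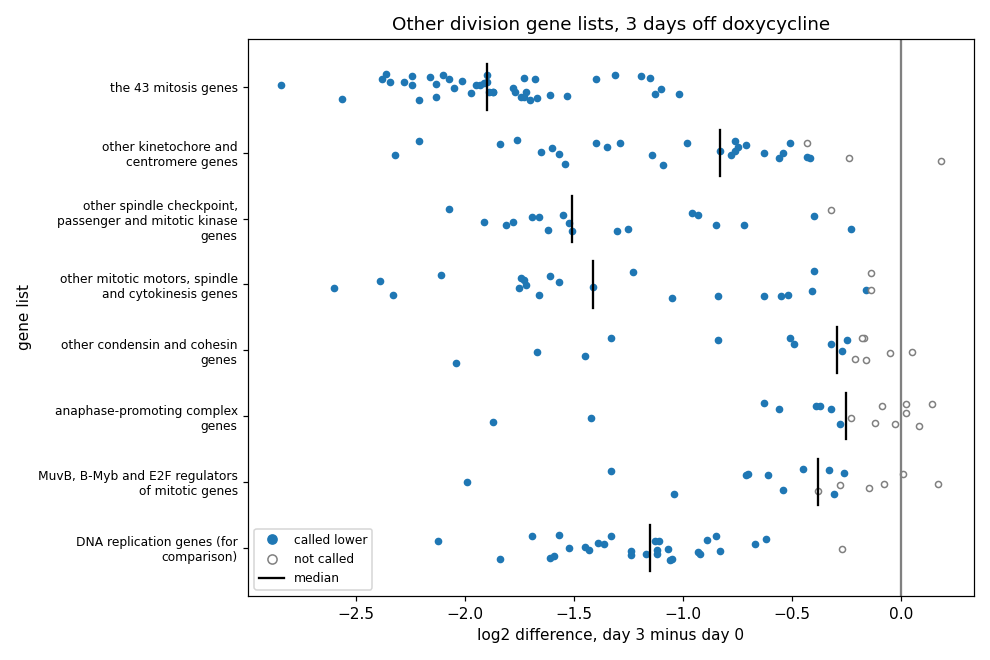
Log2 difference between day 3 and day 0 for each measured gene of the 43 mitosis genes and of 7 other cell division lists. Blue points were called lower, open points were not called, and black bars are medians, which run from -1.90 for the mitosis genes to -0.25 for the anaphase-promoting complex.

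The fall was also set beside the presence of a CHR core, as a description. Among the 34 measured genes with a window, the day 3 median was -1.89 for the 27 with a core and -1.87 for the 7 without one. At day 6 the medians were -1.91 and -1.79.

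Markers of several other cell types moved over the same interval, and those of others moved less. Of all genes, 13.4% were called higher and 16% lower at day 3 than at day 0, and 14.9% and 16.6% at day 6. At day 3, 7 of 8 adult fibre genes were called higher than at day 0 (median 1.04), as were 6 of 6 fibroblast genes (median 1.30) and 6 of 6 endothelial genes (median 0.54). Of 7 macrophage genes 2 were called higher and 1, Itgam, lower (median 0.36). At day 6, 7 of 8 fibre genes (median 0.82), 5 of 6 fibroblast genes (0.94) and 5 of 6 endothelial genes (0.34) were called higher than at day 0, while of the macrophage genes 0 were called higher and 2 lower (median -0.37). These day 6 values include OFF6 replicate 2, which stood apart in macrophage and fibroblast markers. Of 5 myogenic genes, 2 were called higher and 1 lower at day 3, and 3 higher and 2 lower at day 6. At day 3, 2 of 6 T, B and NK cell genes, 1 of 4 neutrophil genes and 0 of 3 erythroid genes were called, all higher. The part of these cells in the fall of the mitotic genes was not tested.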

How the data were processed

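Total RNA from 12 samples was hybridised to 1-colour arrays, per the labels. The authors deposited linear intensity for each probe set, made with RMA (submitters' processing notes), whose version is not given in the sources used here. Of 34760 probe sets, the 21640 with 1 gene symbol were used, and 1321 with several and 11799 with none were not. After log2, the probe set with the highest mean was kept for the 954 genes with several. No filter on low values was set. With limma 3.58.1 (lmFit, eBayes) in R 4.3.3, all 12 arrays entered 1 fit of 4 group means. The fit was also run on simulated data with independent noise for each gene and the same spread in each group. The arrays here shifted together over the members and differed in spread, so that run does not bear on their p-values. Tests were two-sided, adjusted by Benjamini and Hochberg over 19937 genes in each comparison. The median SE was 0.086 with 12.2 degrees of freedom, and the number of arrays limits the precision. Since separate animals are not stated, p-values cover the spread between these samples alone, which can be technical. Deviations of arrays with the same replicate number had a median correlation of -0.03, which does not settle whether they are paired.

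The members, gene lists, marker lists and motifs were chosen with earlier results of these data known. Every member is named. A group of 10 central measured genes, the 3 largest and 3 smallest differences of each comparison with day 0, and any gene called between day 6 and day 3 are given on each array, and of other lists the 3 largest falls. Aurka and Pbk were added after their values were seen. Motifs were searched in RefSeq windows with pandas 2.3.3 in Python 3.11.15, and plots were drawn with matplotlib 3.10.9. Alternatives were other scalings, probe set rules, a level filter, variance models, thresholds and leaving out each array.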

Additional observations from a re-analysis of the deposited data

How the results depend on the processing

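Under 11 other settings and without each array in turn, no call of a member turned direction. All 43 members stayed lower than day 0 at day 3 and day 6 in the settings that tested all of them. Of all genes, 1.98% to 25% were called lower at day 3 in those settings, and 2.14% to 24.5% at day 6. The filter on genes above the median level passes members through the tumour arrays where they are high, so its values are no support: it left 25, all 25 called lower at both times and higher in TUM than in CTL. Of the 9968 genes the filter left, 28.1% and 28.7% were called lower at day 3 and day 6, and 50.4% higher in TUM than in CTL. With the filter the medians were 3.39 for TUM minus CTL, 1.53 for OFF3 minus CTL and 1.55 for OFF6 minus CTL. On each day 24 members were then higher than CTL (47.1% and 47% of the filtered genes) and 1 lower (34.8% and 32.5%). From day 3 to day 6, 1 member was lower (10.7%), and the share covered at day 6 was 54.4%. Centring on the upper quartile gave 2.81 for TUM minus CTL and 0.85 for OFF3 and OFF6 minus CTL, with 1 member lower at day 6 than day 3 (5.19% of all genes). Centring on the median gave 0.87 for OFF3 and OFF6 minus CTL. With a minimum of 2-fold, 23 and 22 members were higher than CTL at day 3 and day 6 (11.5% and 10.7% of all genes) and 0 lower (7.37% and 6.5%). For OFF6 minus CTL, 1 member was lower at an adjusted p under 0.01 (25.8% of all genes) and in a fit of only the 6 arrays (31.8%). Array weights gave 7 members higher and 2 lower at day 6 than day 3, against 20.7% and 21.6% of all genes. Leaving out single arrays gave day 6 minus day 3 medians of -0.09 to 0.17, with 0 to 1 member called in each direction, and 1 to 2 members lower in OFF6 than CTL. Of all genes, 0.672% to 12.4% were then called lower and 1.6% to 12% higher at day 6 than day 3. From 30.6% to 37% were called lower in OFF6 than CTL. The titles number the samples and state no pairing. Deviations of same-numbered arrays had a median correlation of -0.03 (from -0.39 to 0.25), which cannot exclude a pairing with 3 arrays per group. With a replicate block the medians were -1.90 at day 3 and -1.83 at day 6, with 43 members called at each (15% and 15.7% of all genes).

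The low signal of 16 members in muscle limits their distance from it, and 3 arrays per group limit the precision between day 3 and day 6.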
